A study of Mus musculus with 16 samples.

Results

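The 7 genes described here are 3 D-type cyclins (Ccnd1, Ccnd2, Ccnd3), 3 inhibitors of the Cip/Kip family (Cdkn1a, Cdkn1b, Cdkn1c) and 1 inhibitor of the INK4 family (Cdkn2c), taken by gene symbol from a count table of 14829 genes. All 7 were in the table and all 7 passed the filter on low counts. They were measured by RNA sequencing of hematopoietic stem cells from 4 young and 4 old mice, 16 libraries in all. Bone marrow of each mouse was split in 2, held for 1 h at 37 °C with vehicle or with dmPGE2, a long-acting analogue of prostaglandin E2, and then sorted and lysed. The 4 groups of 4 libraries were therefore young vehicle, young dmPGE2, old vehicle and old dmPGE2, with ages given only as young and old, strain and genotype not given in the sources used here, and a vehicle library as the control of every treated one. Library descriptions carried 2 dates, called date 1 (young mice 477 and 478, old mice 479 and 480) and date 2 (young mice 483 and 484, old mice 485 and 486). What was done on each date is not stated.

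Most hematopoietic stem cells rest outside the cell cycle. D cyclins bind the kinases Cdk4 and Cdk6, which phosphorylate the retinoblastoma protein and its relatives and so release E2F factors that switch on the genes of DNA synthesis. INK4 proteins bind Cdk4 and Cdk6 directly, whereas Cip/Kip proteins (p21 from Cdkn1a, p27 from Cdkn1b, p57 from Cdkn1c) bind cyclin-kinase complexes. p57 is known for its part in keeping these stem cells quiescent, and p21 is known as a p53 target that also answers to other signals.

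Library totals ran from 12960704 to 19226963 counts. All 10 stem cell markers on the list used here were present, with summed levels of 2614 to 5049 CPM (counts scaled to library size, as edgeR gives them) over the 16 libraries. Marker levels differed between the dates. In vehicle, stem cell markers summed to 3860 to 4149 CPM on date 1 and 2614 to 2780 CPM on date 2 in young mice, and to 4396 to 5049 and 3822 to 3904 CPM in old mice. The median sum of 15 proliferation markers was 956 CPM on date 1 and 1672 CPM on date 2. The 10 myeloid and neutrophil markers summed to 674 to 852 CPM on date 1 and 2519 to 5289 CPM on date 2, and the 6 of 10 erythroid markers present in the table summed to 40.6 to 103 and 208 to 916 CPM, with none of these markers at 0 in all libraries of a date. Of the 10 myeloid and neutrophil markers, 7 had a mean under 1 CPM in vehicle on date 1 and 0 on date 2. Since the libraries are bulk RNA, fewer cells of a type and less RNA per cell cannot be told apart. The main comparisons of the members are therefore given within each date as well as over both.

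In the untreated cells, levels per length (RPKM, CPM per kilobase of the exon length in the table) differed widely among the 7 genes. Ccnd3 stood highest at 221 ± 37.4 RPKM (SD, n = 8 vehicle libraries), followed by Ccnd2 at 93.2 ± 12.6, Cdkn1c at 32.2 ± 8.17, Cdkn1a at 27.4 ± 23.8, Cdkn2c at 14.4 ± 3.39, Ccnd1 at 9.996 ± 3.42 and Cdkn1b at 2.36 ± 1.14. The ranges of Ccnd3 (187 to 297 RPKM), Ccnd2 (82.2 to 116) and Cdkn1c (18.7 to 42.5) did not overlap one another. Cdkn1a, at 3.36 to 67.3 RPKM, overlapped Cdkn1c, Cdkn2c (10.5 to 19.8), Ccnd1 (4.18 to 15.5) and Cdkn1b (1.16 to 4.82). Ccnd1 also overlapped both Cdkn2c and Cdkn1b. The low Cdkn1b level corresponded to only 52 to 150 counts per library.

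**Figure D1:**
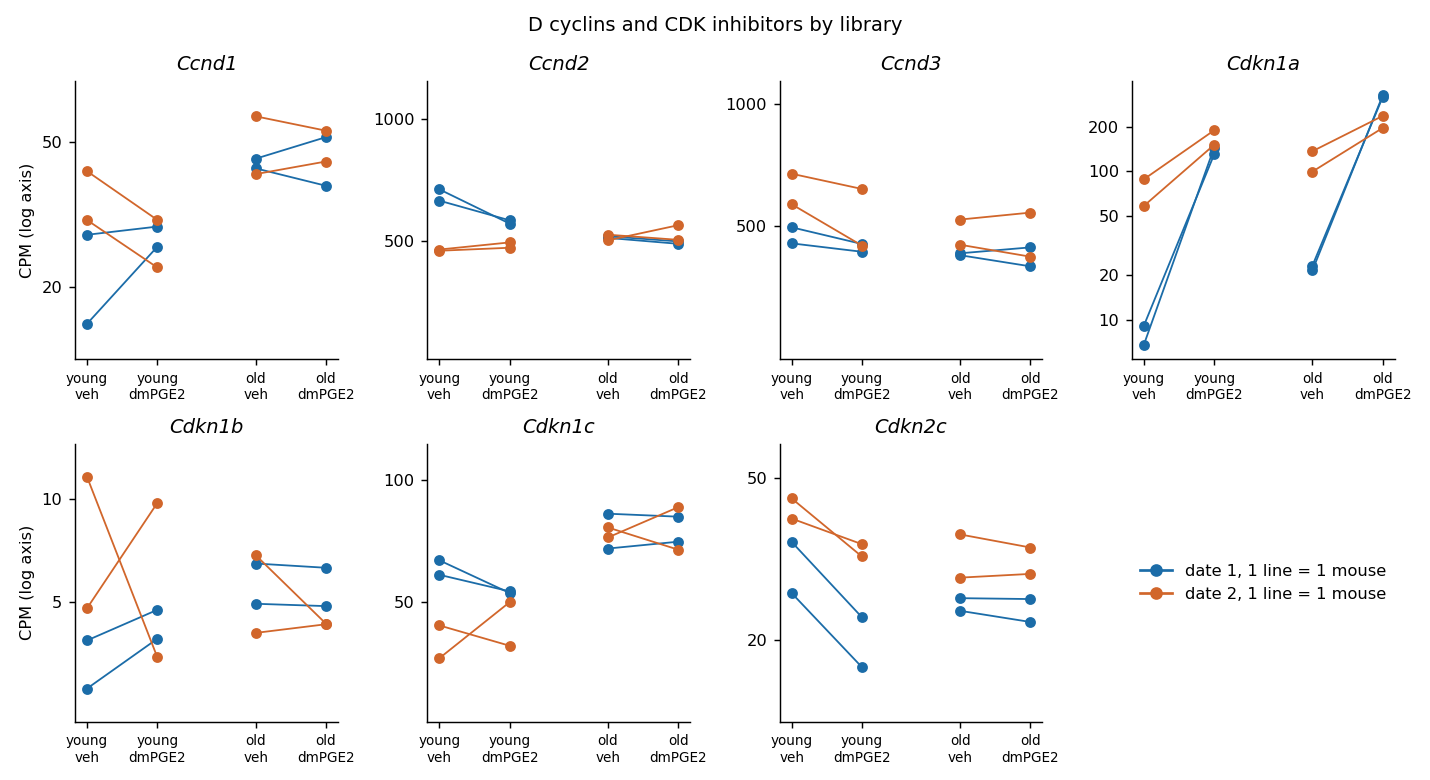
Level of each gene in CPM (log axis) in the 16 libraries; each line joins the vehicle and dmPGE2 libraries of 1 mouse, blue for date 1 and orange for date 2. Cdkn1a lines rise in all 8 mice and start lower on date 1, while those of Ccnd2 and Ccnd3 change little and those of Ccnd1 go up in some mice and down in others.

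The first comparison asks what 1 h of dmPGE2 changes in these genes. Cdkn1a was the only one of the 7 with a called change, and it was called within each date: it rose 15.8-fold on date 1 and 2.08-fold on date 2. No other member passed in any of the dmPGE2 comparisons by the main test. On each date 1 of the 7 genes was called, where the share called among 13942 genes was 2.93% for date 1 (2.42% higher) and 0.387% for date 2 (0.366% higher; edgeR quasi-likelihood test, Benjamini-Hochberg adjusted p under 0.05, n = 4 pairs per date). Over all 8 mice in a model without date terms 0 of the 7 were called, where 0.61% of genes were. There 3 members had an unadjusted p under 0.05, as did 1749 of 13942 genes, and DESeq2 called 1 member, Cdkn1a, and 436 of 14829 genes.

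Cdkn1a lies on chromosome 17 from 29090986 to 29100722 on the plus strand (mm10). RefSeq gives it 2 start sites on GRCm38.p6, and the table counts both together. The windows from 250 bases before to 50 bases after these starts are shown because Cdkn1a is the gene that responded; the same window at the upstream start of Ccnd3, which showed no called response, is given beside them. Both strands were searched for the short CRE TGACG, the full CRE TGACGTCA (which contains the short one), the AP-1 site TGANTCA, the GC box GGGCGG, the CACCC box CACCC, the E-box CACGTG and the TATA box TATAAA. Capitals mark every match, with minus-strand matches written as they read on the printed strand.
Cdkn1a, upstream start, chr17:29090729-29091028, plus strand: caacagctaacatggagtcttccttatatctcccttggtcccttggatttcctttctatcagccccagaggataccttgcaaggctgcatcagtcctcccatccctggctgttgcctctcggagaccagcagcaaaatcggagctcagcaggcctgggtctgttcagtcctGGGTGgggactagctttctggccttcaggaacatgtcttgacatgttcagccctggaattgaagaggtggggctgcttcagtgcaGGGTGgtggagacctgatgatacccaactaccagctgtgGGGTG
Cdkn1a, downstream start, chr17:29093519-29093818, plus strand: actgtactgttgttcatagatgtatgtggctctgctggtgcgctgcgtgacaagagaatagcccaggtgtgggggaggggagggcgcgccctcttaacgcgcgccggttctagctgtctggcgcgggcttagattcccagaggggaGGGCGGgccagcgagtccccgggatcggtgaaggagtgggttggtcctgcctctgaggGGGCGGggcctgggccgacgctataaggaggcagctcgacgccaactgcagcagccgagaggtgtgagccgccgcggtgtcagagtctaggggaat
Ccnd3, upstream start, chr17:47504801-47505100, plus strand: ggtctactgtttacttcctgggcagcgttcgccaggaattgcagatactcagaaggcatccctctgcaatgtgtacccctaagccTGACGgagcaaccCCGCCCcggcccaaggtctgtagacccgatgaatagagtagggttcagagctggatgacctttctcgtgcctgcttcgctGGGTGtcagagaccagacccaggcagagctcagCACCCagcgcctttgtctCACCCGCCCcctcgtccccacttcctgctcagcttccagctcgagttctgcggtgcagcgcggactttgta
The upstream Cdkn1a window held 3 CACCC boxes and the downstream one 2 GC boxes. Neither held the letters of the short CRE, the full CRE or the AP-1 site. The Ccnd3 window held 1 short CRE, 2 GC boxes and 3 CACCC boxes, and 1 GC box and 1 CACCC box share bases in the run printed as CACCCGCCC. Of 32851 promoter windows of this length, 57.5% held a CACCC box, 35.7% a GC box, 20.8% a short CRE, 7.81% an AP-1 site, 7.15% an E-box, 13.6% a TATA box and 1.79% a full CRE. A match of letters is a description and not a binding site, and the windows leave out more distant sequence. Sites of other factors, p53 among them, were not searched for, so lower case letters may hold such sites. Sequences were found for 4 of the 7 members (also Cdkn1b and Cdkn2c). Of the windows not printed, the downstream Ccnd3 window and the Cdkn1b window each held 1 short CRE. Neither Cdkn2c window held a short CRE, and Cdkn2c had no called response either.

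On date 1 Cdkn1a went from 6.81 to 144 CPM in young mouse 477, from 9.15 to 130 CPM in young mouse 478, from 23.2 to 316 CPM in old mouse 479 and from 21.5 to 324 CPM in old mouse 480 (vehicle first). On date 2 it went from 88.3 to 189 CPM in young mouse 483, from 58.5 to 151 CPM in young mouse 484, from 136 to 236 CPM in old mouse 485 and from 99.5 to 196 CPM in old mouse 486. Every treated library was above every vehicle library of its own date, most narrowly on date 2, where the lowest treated level was 151 and the highest vehicle level 136 CPM. This is a description, and the share of all genes without such overlap was not determined. The log2 change was 3.98 ± 0.11 SE on date 1 (adjusted p = 5.16e-10) and 1.06 ± 0.09 on date 2 (adjusted p = 0.000311), and these placed Cdkn1a 12th and 7th of 13942 genes by p. The difference between the dates was itself called (log2 date 2 minus date 1 -2.92 ± 0.14, adjusted p = 2.12e-07), as it was for 1.08% of genes. Over both ages, the Cdkn1a means of the dates lay nearer to each other with dmPGE2 than in vehicle. They were 228 ± 106 CPM (date 1) and 193 ± 34.9 CPM (date 2) with dmPGE2, against 15.2 ± 8.39 and 95.7 ± 32.2 CPM in vehicle (SD, n = 4). By age, treated means differed between the dates in opposite directions, 137 and 170 CPM in young and 320 and 216 CPM in old mice (n = 2). The vehicle means were 7.98 and 73.4 CPM in young and 22.4 and 118 CPM in old mice. Over all 8 mice without date terms the log2 change of 2.43 ± 0.64 was not called (adjusted p = 0.212), although Cdkn1a was higher in 8 of 8 mice. Date terms gave 2.52 ± 0.07 (adjusted p = 9.47e-10), DESeq2 gave an adjusted p of 0.000293, and edgeR without robust dispersion one of 0.0394.

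The response of Cdkn1a was called in both ages once the dates were separated. In old mice the log2 change was 3.85 ± 0.14 on date 1 (adjusted p = 2.53e-08) and 0.88 ± 0.13 on date 2 (adjusted p = 0.0444), and in young mice 4.10 ± 0.15 (adjusted p = 2.04e-08) and 1.23 ± 0.13 (adjusted p = 0.00222), with 2 pairs each. Over both dates the changes of 2.32 ± 0.91 in old and 2.54 ± 0.91 in young mice were not called (edgeR adjusted p = 0.619 and 0.344). Whether old and young cells differed in this response was tested by the age by dmPGE2 interaction, which gave -0.22 ± 1.27 over both dates, -0.25 ± 0.20 on date 1 and -0.34 ± 0.18 on date 2, none called. For old mice, young mice and their difference, edgeR called 0 of 13942 genes (0%), with 1096, 1785 and 955 genes at an unadjusted p under 0.05, and DESeq2 called 119, 275 and 15. Within the dates 1.77% and 0.136% of genes were called in old mice and 1.79% and 0.337% in young mice, on dates 1 and 2. Of the members, 1 had an unadjusted p under 0.05 in old mice (Cdkn1a), 3 in young mice (Cdkn1a, Cdkn2c, Ccnd3) and 1 in the interaction (Cdkn2c), and DESeq2 called 0, 2 and 0.

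**Figure D2:**
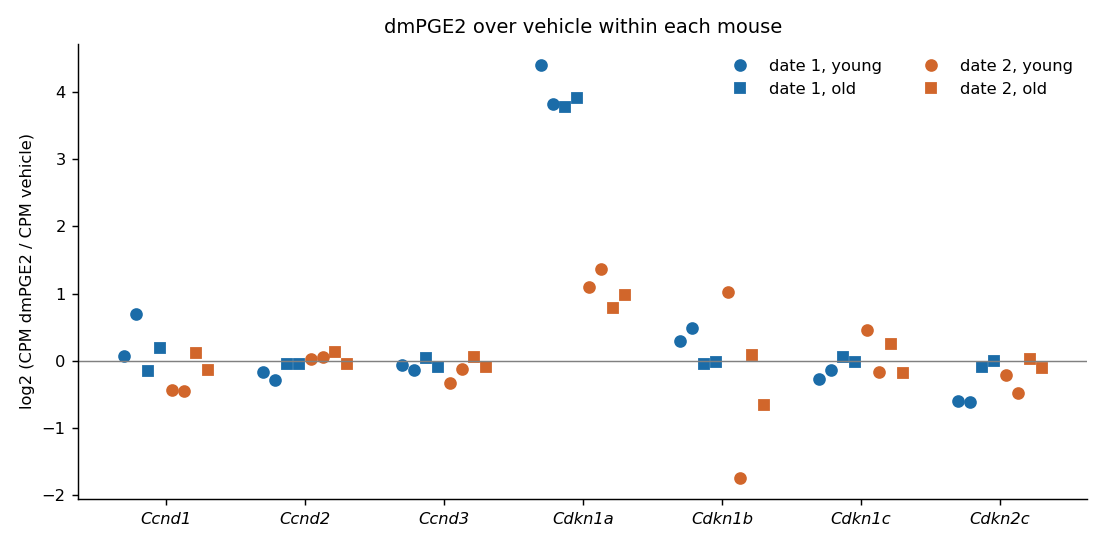
Log2 ratio of the dmPGE2 to the vehicle level within each mouse (circles young, squares old; blue date 1, orange date 2) for the 7 genes. Cdkn1a ratios lie well above 3 on date 1 and near 1 on date 2; those of Cdkn1b scatter widely, from -1.75 to 1.02.

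Cdkn2c, which encodes the Cdk4 and Cdk6 inhibitor p18, lies on chromosome 4 from 109660876 to 109666756. In young mice it went from 26.1 to 17.1, from 34.9 to 22.7, from 39.8 to 34.4 and from 44.6 to 32.1 CPM in mice 477, 478, 483 and 484. It was lower with dmPGE2 in 4 of 4 young mice, and the treated and vehicle young libraries overlapped over both dates but not within either date. Each date holds only 2 young mice, and the share of all genes without such overlap was not determined. The log2 value of -0.48 ± 0.12 was not called by edgeR (adjusted p = 0.186) and was called by DESeq2 (adjusted p = 0.0263). Within dates it was -0.61 ± 0.17 and -0.34 ± 0.17, neither called by edgeR (adjusted p = 0.127 and 0.590). In old mice it went from 23.6 to 22.1, from 25.3 to 25.2, from 28.5 to 29.1 and from 36.4 to 33.8 CPM in mice 479, 480, 485 and 486, a log2 value of -0.04 ± 0.12. The age difference in this response, 0.44 ± 0.17, was not called (adjusted p = 0.696).

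The other Cip/Kip genes had no called response. Cdkn1c (chromosome 7 from 143458339 to 143461050) had means of 50.4 ± 12.5 CPM without and 48.7 ± 6.59 CPM with dmPGE2 in young mice, against 74.6 ± 6.30 and 76.1 ± 8.67 CPM in old ones (SD, n = 4). With dmPGE2 it was higher in 3 and lower in 5 of 8 mice, a log2 value of 0.00064 ± 0.08 over both dates, -0.09 ± 0.12 on date 1 and 0.09 ± 0.12 on date 2. Cdkn1b (chromosome 6 from 134920401 to 134925525) had one of -0.05 ± 0.28 over both dates, 0.18 ± 0.40 on date 1 and -0.32 ± 0.42 on date 2, the widest errors of the 7 genes on each date. Its ratios went in opposite directions in the 2 young mice of date 2, from 4.80 to 9.73 CPM in mouse 483 and from 11.6 to 3.46 CPM in mouse 484.

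Among the D cyclins, Ccnd2 (chromosome 6 from 127125709 to 127151048) had a log2 change of -0.04 ± 0.04 over all mice (adjusted p = 0.752). It was lower in 4 of 4 mice on date 1 (-0.13 ± 0.05, adjusted p = 0.272) and in 1 of 4 on date 2 (0.04 ± 0.05). Ccnd3 (chromosome 17 from 47505051 to 47599688) had -0.09 ± 0.04 (adjusted p = 0.363), with -0.06 ± 0.05 on date 1 and -0.12 ± 0.05 on date 2, and was lower in 6 of 8 mice, among them 4 of 4 young mice (-0.17 ± 0.06, adjusted p = 0.266). Ccnd1 (chromosome 7 from 144929931 to 144939925), the cyclin most often tied to growth factor signals, had values of opposite sign on the dates, 0.21 ± 0.13 on date 1 and -0.22 ± 0.13 on date 2, neither called (adjusted p = 0.546 and 0.698). The error of these values over all mice ranged from 0.04 for Ccnd2 and Ccnd3 to 0.12 for Ccnd1.

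The second comparison asks how these genes differ between old and young stem cells. In vehicle, Cdkn1a (2.04-fold), Ccnd1 (1.64-fold) and Cdkn1c (1.49-fold) were higher in old mice and Ccnd3 was 1.21-fold lower. With dmPGE2, Ccnd1 (1.72-fold), Cdkn1a (1.71-fold) and Cdkn1c (1.56-fold) were again higher, and Ccnd3 was not called. So 4 of 7 members were called in vehicle, where 17.3% of 13369 genes were called (8.47% higher, 8.86% lower), and 3 of 7 with dmPGE2, where 14.3% of 13279 genes were (7.85% higher; edgeR with a term for date, n = 4 mice per age). Each arm holds the same 8 mice, so the arms are not independent of each other. Where old and young libraries are said below not to overlap, this is a description. Within a date it sets 2 libraries against 2, and the share of all genes without overlap was not determined.

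Cdkn1c, in old vehicle, stood at 67.7, 82.5, 72.1 and 76.3 CPM in mice 479, 480, 485 and 486, and in young vehicle at 63.3, 58.3, 36.3 and 43.8 CPM in mice 477, 478, 483 and 484. Every old library was above every young one, and the same held with dmPGE2 (67.3 to 85.6 against 39.0 to 53.1 CPM). The log2 difference was 0.57 ± 0.14 in vehicle (adjusted p = 0.0158) and 0.64 ± 0.12 with dmPGE2 (adjusted p = 0.0061), and both remained called without any single mouse. In edgeR without the term for date the vehicle call was lost (adjusted p = 0.0821). The vehicle value was 0.29 ± 0.15 on date 1 (adjusted p = 0.317) and 0.86 ± 0.16 on date 2 (adjusted p = 0.0114), and the difference between the dates was not called (0.58 ± 0.22, adjusted p = 0.845). With dmPGE2 it was 0.50 ± 0.17 on date 1 (adjusted p = 0.131) and 0.78 ± 0.17 on date 2 (adjusted p = 0.0238). Within the dates 6.47% (date 1) and 7.91% (date 2) of genes were called in vehicle, and 5.83% and 8.26% with dmPGE2. An antisense gene, Gm44732, overlaps 30.3% of the exon length of Cdkn1c on the other strand, and the library kit does not mark strand, so reads from the pair cannot be told apart; Gm44732 was not analysed here.

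Cdkn1a was higher in old than in young mice within both dates and both arms, by 2.80-fold and 1.61-fold in mean vehicle level and by 2.34-fold and 1.27-fold with dmPGE2 on dates 1 and 2. The ages did not overlap in any of these, with only 2 mice per age on each date. The log2 difference was 1.03 ± 0.20 in vehicle (adjusted p = 0.00618) and 0.78 ± 0.16 with dmPGE2 (adjusted p = 0.00907). It was called on date 1 in vehicle (1.47 ± 0.25, adjusted p = 0.00923) and with dmPGE2 (1.21 ± 0.13, adjusted p = 0.00118), but on date 2 in neither arm (0.66 ± 0.23 and 0.34 ± 0.13, adjusted p = 0.115 and 0.137). Without the term for date the vehicle call was lost (adjusted p = 0.723). With that term the calls in both arms held without any single mouse.

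Ccnd1 stood at 42.5, 45.1, 40.9 and 59.0 CPM in old vehicle (mice 479, 480, 485, 486) and at 27.9, 15.9, 30.6 and 41.7 CPM in young vehicle (mice 477, 478, 483, 484). The highest young library, mouse 484, was just above the lowest old one. With dmPGE2 the old libraries (38.0 to 53.9 CPM) lay above all young ones (22.7 to 30.6 CPM). The log2 difference was 0.71 ± 0.21 in vehicle (adjusted p = 0.0388) and 0.78 ± 0.15 with dmPGE2 (adjusted p = 0.0061). The vehicle call was lost without mouse 478, 479, 480, 483 or 486 (adjusted p up to 0.108), with the log2 difference between 0.53 and 0.87 over all 8 fits without 1 mouse, whereas the dmPGE2 call held without any single mouse. The vehicle call was also lost in edgeR without the term for date (adjusted p = 0.143). Within dates the vehicle values were 0.98 ± 0.28 and 0.44 ± 0.28, neither called (adjusted p = 0.0743 and 0.381), and the dmPGE2 values were 0.68 ± 0.21 (adjusted p = 0.109) and 0.88 ± 0.22 (adjusted p = 0.0391). Oraov1, a gene annotated as LTO1 that overlaps 29.0% of the exon length of Ccnd1 on the other strand, had an age difference of 0.13 ± 0.15 in vehicle, not called.

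Ccnd3, the highest of the 7 per length, stood at 454 ± 43.8 CPM in old and 546 ± 95.6 CPM in young vehicle (SD, n = 4), with overlap over both dates and none within a date. The log2 difference was -0.28 ± 0.08 (adjusted p = 0.0334) in vehicle and -0.12 ± 0.11 (adjusted p = 0.503) with dmPGE2. The vehicle call was lost without mouse 478, 479, 480, 484, 485 or 486 (adjusted p up to 0.106), with the difference between -0.32 and -0.20 over the 8 fits without 1 mouse. It was also lost in edgeR without the term for date (adjusted p = 0.184), within date 1 (-0.17 ± 0.11, adjusted p = 0.402) and within date 2 (-0.38 ± 0.11, adjusted p = 0.0584). Bysl, a ribosome biogenesis gene that overlaps 15.8% of the exon length of Ccnd3 on the other strand, had similar values, -0.32 ± 0.08 (adjusted p = 0.0201) in vehicle and -0.12 ± 0.09 with dmPGE2.

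The remaining members were not called with age over both dates. Ccnd2 showed values of opposite sign on the dates in vehicle: old mice were lower on date 1 (510 and 515 against 630 and 672 CPM; log2 -0.36 ± 0.08, adjusted p = 0.0232) and had 503 and 520 against 474 and 478 CPM on date 2 (0.08 ± 0.08, adjusted p = 0.606). The difference between the dates was not called (0.44 ± 0.11, adjusted p = 0.586). Cdkn2c had -0.37 ± 0.14 in vehicle (adjusted p = 0.0968), with old below young without overlap within each date, and 0.07 ± 0.14 with dmPGE2. Cdkn1b had 0.07 ± 0.41 and -0.13 ± 0.38.

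**Figure D3:**
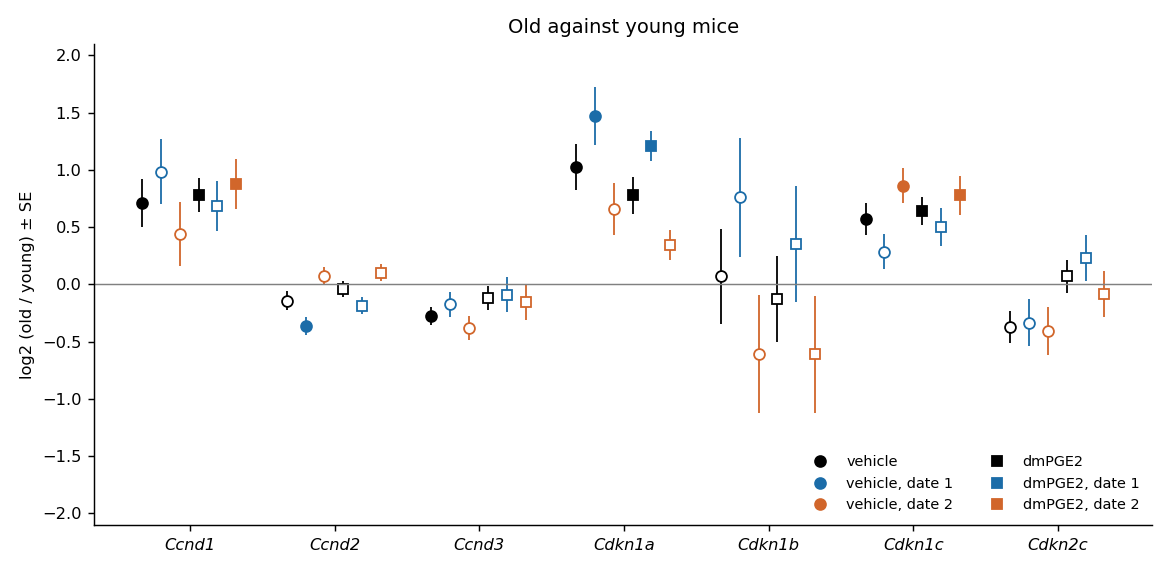
Log2 difference of old against young mice ± SE for the 7 genes, in vehicle (circles) and dmPGE2 (squares), over both dates (black) and within date 1 (blue) or date 2 (orange); filled symbols were called at an adjusted p under 0.05. Cdkn1a, Cdkn1c and Ccnd1 lie above 0 in every fit, while Ccnd2 and Cdkn1b change sign between the dates in both arms and Cdkn2c does so with dmPGE2.

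Other gene lists also differed between old and young mice. The 15 proliferation markers summed to 472 to 1279 CPM in old and 1236 to 2080 CPM in young vehicle libraries, and 15 of 15 were lower in old mice. Stem cell markers summed to 3822 to 5049 against 2614 to 4149 CPM, with 8 of 10 higher in old mice, and the 8 megakaryocyte markers to 924 to 1347 against 462 to 605 CPM. Of all genes tested in vehicle, 8.47% were called higher and 8.86% lower in old mice, with a median log2 difference of -0.0012. The 8 endothelial markers summed to 288 to 335 CPM in old and 191 to 255 CPM in young vehicle. On date 2 erythroid markers summed to 208 to 348 CPM in old and 815 to 916 CPM in young vehicle, and myeloid markers to 2519 to 2779 and 3725 to 5289 CPM. No proliferation, stem cell or megakaryocyte marker was at 0 in all libraries of a group. Their part in the age differences of the members was not tested.

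Per length, Ccnd3 made up 67.9 ± 4.72% of the summed D cyclin RPKM in vehicle and 67.3 ± 3.45% with dmPGE2 (SD, n = 8). The Ccnd1 share was 2.18 ± 0.67% in young and 4.10 ± 0.76% in old vehicle, and 2.29 ± 0.23% and 4.18 ± 0.89% with dmPGE2 (SD, n = 4). Every old library (at least 3.30%) was above every young one (at most 2.81%). Among the 4 inhibitors Cdkn1a took 12.7 ± 5.86% of the summed RPKM in vehicle on date 1 and 48.4 ± 8.32% on date 2, and 69.7 ± 6.73% and 66.6 ± 1.05% with dmPGE2. Cdkn1c, at 61.9 ± 3.88% in vehicle of date 1, was the largest inhibitor there and had 22.2 ± 4.28% with dmPGE2. Its own level on date 1 was 68.0 ± 10.4 CPM in vehicle and 64.3 ± 13.9 CPM with dmPGE2 (SD, n = 4), not a called change. A share also moves with the other genes of the sum, here Cdkn1a. These shares are descriptions and were not tested.

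**Figure D4:**
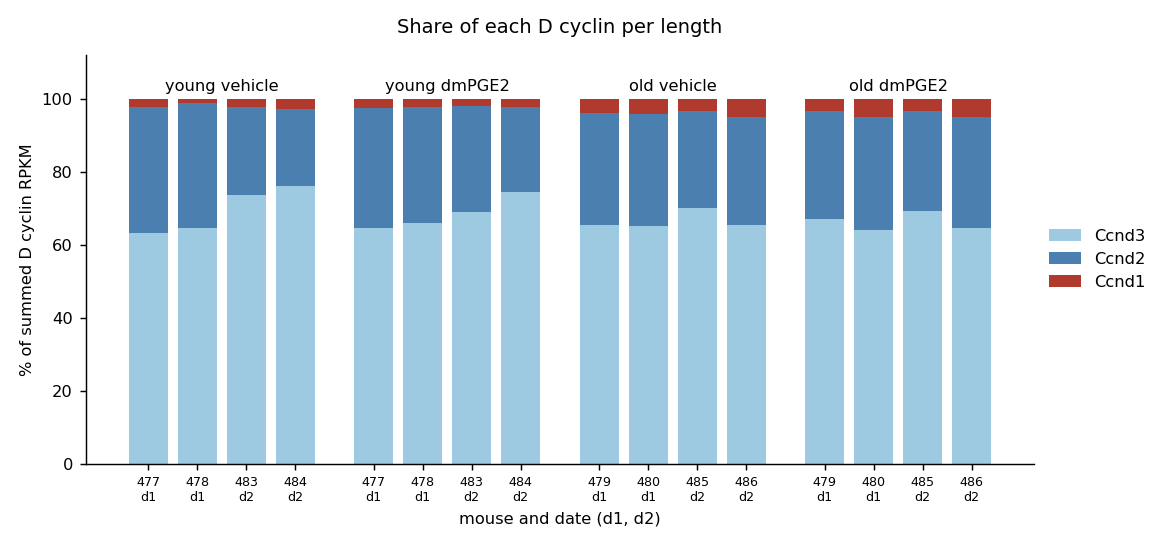
Share of each D cyclin in their summed RPKM (%), 1 bar per library, grouped by age and treatment and marked by mouse and date (d1, d2). Ccnd3 fills 63.2 to 76.0% of each bar, and the Ccnd1 slice is between 3.30 and 5.11% in old and between 1.23 and 2.81% in young libraries.

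In the comparison of the dates in vehicle 2 members were called, Cdkn1a and Ccnd3, where 11% of 13369 genes were called. Cdkn1a was 6.85-fold higher on date 2 (log2 2.78 ± 0.21, adjusted p = 1.0e-05) and Ccnd3 1.21-fold higher (0.28 ± 0.08, adjusted p = 0.0437). The Ccnd3 call was lost without any mouse but 486. Cdkn2c (0.43 ± 0.14, adjusted p = 0.0748), Ccnd1 (0.45 ± 0.21), Ccnd2 (-0.23 ± 0.08), Cdkn1c (-0.31 ± 0.14) and Cdkn1b (0.61 ± 0.41) were not called. The myeloid and erythroid markers given above were also higher on date 2, and their part in the Cdkn1a level there was not tested.

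Genes that work with the members were described from fixed lists, by counts and medians beside those of all genes tested. Downstream of the members the age difference was broad. All 18 S phase genes under E2F control were lower in old mice, in vehicle (median log2 -0.88) and with dmPGE2 (-0.86), where the medians of all genes were -0.0012 and -0.0062. Within dates 16 and 16 of 18 were lower in vehicle and 16 and 17 with dmPGE2. Of all genes tested, 8.86% were called lower in old mice in vehicle and 6.41% with dmPGE2. Within dates 1 and 2, 6.47% and 7.91% were called in either direction in vehicle, and 5.83% and 8.26% with dmPGE2. Mcm5 and Mcm2, subunits of the replicative helicase, had log2 differences of -1.10 ± 0.08 and -0.83 ± 0.07 in vehicle, Uhrf1, which maintains DNA methylation, -0.94 ± 0.08, and Rrm2, a ribonucleotide reductase subunit, -1.24 ± 0.11. With dmPGE2, the member with the smallest p was Mcm4, at -0.87 ± 0.08.

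Of the 10 G1 kinases and partners, 6 were lower in old vehicle and 5 with dmPGE2, and 0 were higher, where 8.86% of all genes were called lower in vehicle and 6.41% with dmPGE2. The same shares apply to the counts of lower genes that follow. Ccna2, a cyclin of S phase, had -1.26 ± 0.14 in vehicle, Cdk2 -0.60 ± 0.08, Ccne1 -1.61 ± 0.26 and the phosphatase gene Cdc25a -0.60 ± 0.10. Cdk4, the partner of the D cyclins, was among those lower with dmPGE2 (-0.35 ± 0.08, adjusted p = 0.0144). Of 10 E2F and DP genes, 5 were lower in vehicle, among them E2f1 (-0.93 ± 0.16), E2f2 (-0.97 ± 0.18), E2f8 (-0.87 ± 0.16) and the E2F partner Tfdp1 (-0.48 ± 0.08), and with dmPGE2 4 were lower and 1, E2f5, higher (0.55 ± 0.14; named after its value was seen). Of 8 pocket protein and DREAM genes in vehicle Rbl1 (-0.69 ± 0.13) and Rbbp4 (-0.31 ± 0.06) were lower and Rbl2, the p130 repressor of resting cells, was higher (0.39 ± 0.09). Of 10 tested genes for the turnover of p27 and D cyclins, 1 was lower in each arm, Cks1b, a cofactor in p27 degradation (-0.98 ± 0.12 and -0.71 ± 0.09). Of the other CDK inhibitors Cdkn3 was lower with dmPGE2 (-1.16 ± 0.21), and Cdkn2a was not analysed here.

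Under dmPGE2 the same kinases, E2F factors and S phase genes showed 0 called members of 10, 10 and 18 on either date, with median log2 changes of -0.02, 0.02 and -0.04 on date 1 and -0.0073, -0.0025 and -0.01 on date 2. The medians of all genes were -0.0039 and -0.0015, and their shares with a call 2.93% and 0.387%. At shares this low, a count of 0 in such short lists does not set them apart from other genes. Over all mice, where 0.61% of genes were called, Rb1, the retinoblastoma gene, was called higher (0.41 ± 0.08, adjusted p = 0.0379). Like the lists above, it was called on neither date alone (0.42, adjusted p = 0.0802, and 0.39, adjusted p = 0.284). The Rb1 call held without mouse 485 or 486 and was lost without any other mouse (adjusted p up to 0.151), with a log2 change of 0.35 to 0.44. Among 14 transcriptional regulators known to act on the members, Klf4 rose on date 1 (5.37 ± 0.17) and date 2 (1.35 ± 0.13), and Mycn fell on both (-1.22 ± 0.07 and -0.48 ± 0.07). Fos rose on both dates as well (1.63 ± 0.05 and 0.44 ± 0.05), and Jun on date 1 (0.86 ± 0.07). Of 20 p53 targets 4 were higher and 1 lower on date 1 (median 0.08), where 2.93% of all genes were called and 2.42% were higher. Btg2, an antiproliferative gene, rose (3.81 ± 0.08), as did the kinase gene Plk2 (2.15 ± 0.08), the cell death gene Pmaip1 (1.95 ± 0.40) and the p53 ligase gene Mdm2 (0.39 ± 0.08, named after its value was seen), while Sesn1 fell (-0.40 ± 0.07). On date 2 Btg2 was the one called (0.84 ± 0.07). In old vehicle Btg2 (1.71 ± 0.32), Plk2 (2.13 ± 0.25), Sesn1 (0.42 ± 0.10) and Trp53inp1 (0.62) were higher and Rps27l (-0.35) lower, the last of these named after its value was seen. In that comparison 8.47% of all genes were called higher and 8.86% lower.

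**Figure D5:**
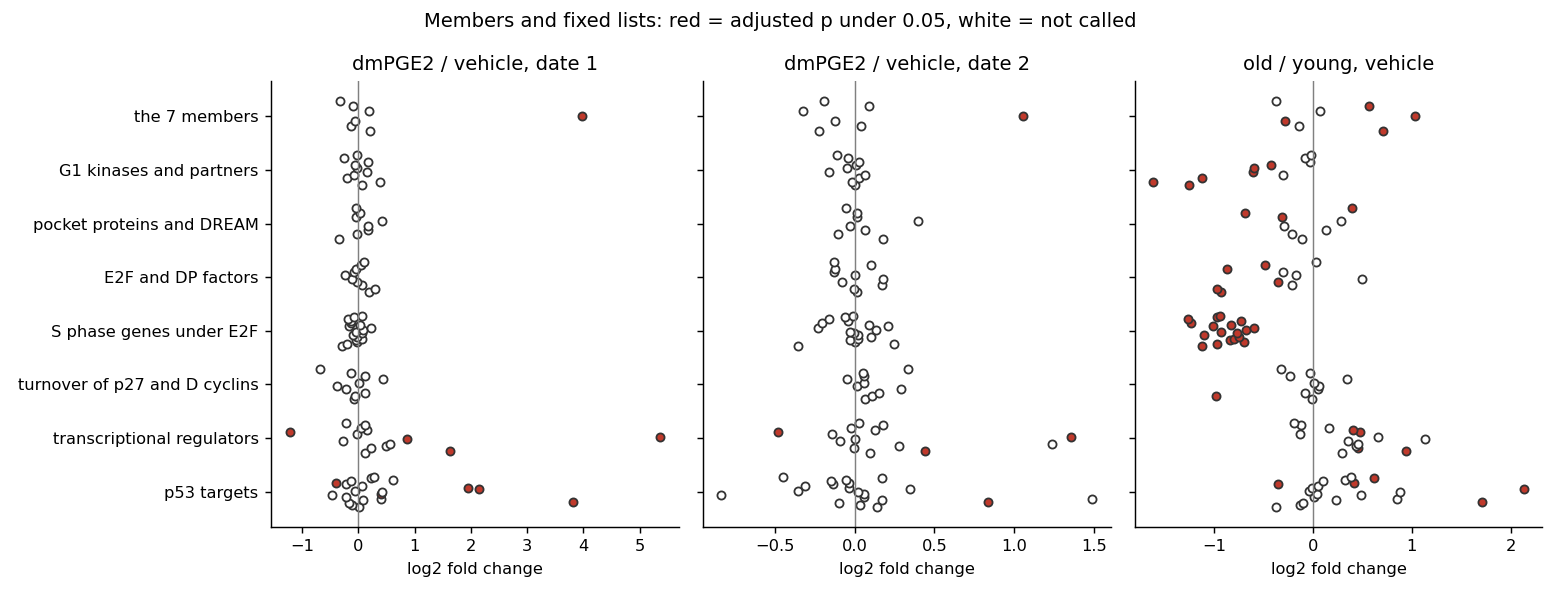
Log2 fold changes of the 7 members and of the genes of 7 fixed lists, 1 point per gene, for dmPGE2 against vehicle on date 1 and on date 2 and for old against young in vehicle; red points were called at an adjusted p under 0.05. With dmPGE2 the S phase genes stay near 0, and with age all 18 lie to the left.

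The genes whose patterns were most like each member were found by Pearson's r of log2 CPM over the 16 libraries after the mean of each date was removed, among 10833 genes. The vehicle and dmPGE2 libraries of a mouse share that mouse, so r is a description. Differences by treatment and by age were not removed, so genes that share these have a high r. Cdkn1a was closest to Nrarp (r = 0.991), Hes1 (0.990) and Fosl2 (0.988), where Nrarp and Hes1 are Notch target genes and Fosl2 is an AP-1 subunit. Cdkn1c was closest to Procr (0.962), the stem cell surface protein EPCR, Sfrp1 (0.955), a secreted Wnt inhibitor, and Ctsf (0.953). Ccnd1 was closest to Serinc3 (0.938), Triobp (0.921) and Ralgds (0.919), and Ccnd3 to Cct7 (0.909), Dvl2 (0.858) and Ftsj1 (0.852). The highest values for Ccnd2, Cdkn2c and Cdkn1b were lower, at 0.848 (Fam65a), 0.867 (Nme3) and 0.826 (Cep85). Among the members themselves r ran from -0.60 for Cdkn1a with Cdkn2c to 0.65 for Ccnd1 with Cdkn1c.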

How the data were processed

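The deposited table holds whole-number counts of reads per gene for the 16 libraries. Per the submitters' processing notes, the authors used STAR 2.5.2b, featureCounts and Subread 1.5.1 with mm10; annotation and strand setting: not given in the sources used here. The table also has 2504 empty lines, which were left out. Members and lists were chosen with earlier results of these data known.

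Counts were tested with edgeR 4.0.16 in R 4.3.3 (TMM scaling, filterByExpr, robust quasi-likelihood), with p-values adjusted over all genes tested and called under 0.05. The dmPGE2 fits had mouse as a block, because vehicle and dmPGE2 libraries come from the same mouse; the correlation within a mouse was 0.429 to 0.693 after group means were removed and 0.0270 to 0.223 after dates were too. Age fits had a date term. The SE given for a log2 change was the absolute change divided by the square root of the quasi-likelihood F statistic. Named genes were the 7 members, up to 4 called genes per list by smallest p, and the 3 most like each member. The scripts were tested on simulated data. Alternatives were RLE scaling, no filter, no robust dispersion, DESeq2 1.42.0, other date terms, no block, and each mouse left out.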

Additional observations from a re-analysis of the deposited data

Results flagged for a closer look

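The rise of Cdkn1a with dmPGE2 differed between the dates, by -2.92 on the log2 scale for date 2 minus date 1 (edgeR interaction test, adjusted p = 2.12e-07), and the ratio was 13.6 to 21.2 in the 4 mice of date 1 and 1.73 to 2.58 in the 4 of date 2. Among 49 groups of 4 or 8 values, some of which share values, 3 groups of 4 held a single value far from the others, where chance gives about 1 in 20. The log2 ratio of Ccnd2 in old mouse 485 was 0.124, and the next highest was -0.04. Ccnd3 in the dmPGE2 library of young mouse 484 stood at 616 CPM, and the next highest at 451 CPM. The log2 ratio of Cdkn1b in old mouse 486 was -0.66, and the next lowest was -0.04.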

How the results depend on the processing

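Of 1001 alternative values of the members, 886 kept direction and call, 33 lost and 13 gained a call, and 69 had the opposite sign, 0 of them called; the cause was not tested. Members called with dmPGE2 over all mice numbered 0, but 1 without robust dispersion, with DESeq2 or with date terms; in old mice 0, but 1 with date terms or within either date; in young mice 0, but 2 with DESeq2 and 1 with date terms or within either date. Members called with age numbered 4 in vehicle, but 0 without the date term, 2 within date 1, 1 within date 2 and 2 to 4 without 1 mouse, and 3 with dmPGE2, but 1 within date 1 and 2 within date 2. Between dates 2 were called, but 3 with DESeq2 (Cdkn2c in addition, adjusted p = 0.0470), 1 with no filter or without robust dispersion, and 1 to 2 without 1 mouse. Genes called with dmPGE2 over all mice numbered 85, against 39 without the replicate block, 144 without robust dispersion, 436 with DESeq2 and 347 with date terms, and 0 to 166 without 1 mouse. Without the replicate block Cdkn1a had 1.93 over all mice.

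Opposite signs were these, in log2. Over all mice Cdkn1c had -0.0010 with RLE, -0.0034 with no filter, -0.0011 with DESeq2 and -0.0084 without the replicate block. In old mice Ccnd2 had -0.0022 with no filter and -0.032 within date 1, and Ccnd1 -0.0070 within date 2. In young mice Cdkn1b had -0.074 without the replicate block and -0.35 within date 2, Ccnd1 0.38 within date 1, and Ccnd2 0.042 and Cdkn1c 0.15 within date 2. For age by dmPGE2 Cdkn1a had 0.028 without the replicate block, Ccnd1 -0.35 within date 1, and Cdkn1b 0.059 and Cdkn1c -0.11 within date 2. With age in vehicle Cdkn1b had -0.062 without the date term and -0.61 within date 2, and Ccnd2 0.077 within date 2; with dmPGE2 Cdkn1b had 0.35 within date 1, and Ccnd2 0.10 and Cdkn2c -0.084 within date 2.

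Leaving out 1 mouse gave both signs as follows. Over all mice the ranges were -0.13 to 0.061 for Ccnd1, -0.23 to 0.22 for Cdkn1b and -0.078 to 0.040 for Cdkn1c. In old mice they were -0.055 to 0.066 for Ccnd1, -0.043 to 0.021 for Ccnd2, -0.045 to 0.015 for Ccnd3, -0.24 to 0.015 for Cdkn1b and -0.048 to 0.10 for Cdkn1c. In young mice they were -0.27 to 0.11 for Ccnd1, -0.31 to 0.60 for Cdkn1b and -0.19 to 0.048 for Cdkn1c. For age by dmPGE2 they were -0.098 to 0.28 for Ccnd1, -0.81 to 0.37 for Cdkn1a, -0.75 to 0.15 for Cdkn1b and -0.017 to 0.22 for Cdkn1c. On date 2 they were -0.0030 to 0.085 for Ccnd2, -1.02 to 0.36 for Cdkn1b and -0.063 to 0.24 for Cdkn1c, and for the date difference -1.20 to 0.18 for Cdkn1b. With age they were -0.16 to 0.52 for Cdkn1b in vehicle, and with dmPGE2 -0.082 to 0.00022 for Ccnd2, -0.30 to 0.34 for Cdkn1b and -0.035 to 0.16 for Cdkn2c. Cdkn1b had 52 to 150 counts per library, which limits its precision.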
